A study of Mus musculus with 2 samples.

Results

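The cathepsins are proteases of the lysosome, and 10 of their genes were compared in mouse ovaries with and without ulipristal: Ctsa, Ctsb, Ctsc, Ctsd, Ctsf, Ctsh, Ctsk, Ctsl, Ctss and Ctsz. They were found by symbol among the array's probe sets (groups of short probes read out as 1 signal) that were annotated to exactly 1 gene. All 10 genes had such a probe set, 22 probe sets in all, of 34945 that named 1 gene and 18193 genes on the array. The ovaries came from wild type CD-1 mice, 24 to 28 days old, injected with 5 IU of PMSG (a gonadotropin from pregnant mare serum, which grows follicles) and, 48 h after that, with 5 IU of hCG (the human placental gonadotropin, which triggers ovulation). Both groups received these hormones. Oil vehicle was given to one group, and ulipristal acetate (also called CDB in the labels), a modulator of the progesterone receptor, to the other, 2 h after hCG. Ovaries were taken at 11 h, with the starting point of that time not stated. Each group is 1 array of whole-ovary RNA, and how many mice it pools is not stated in the labels. There is no spread between animals, so no test, standard deviation or p-value is given, and every difference below is between these 2 arrays. Whole ovary also means that fewer cells of a type and less RNA per cell cannot be told apart.

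Cathepsins are made as inactive precursors, sorted to the lysosome and activated by its acidity, and they break down proteins taken up by or made in the cell. Some are also secreted and cut extracellular matrix. Cathepsin L is known in the mouse ovary as a protease whose message depends on the progesterone receptor in the follicle about to ovulate, together with Adamts1, a secreted protease that cleaves the matrix proteoglycan versican. Most of the family are cysteine proteases, whereas cathepsin D is an aspartic and cathepsin A a serine protease.

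Values are signals in arbitrary units, scaled to the same trimmed mean of 150.001 on both arrays. A gene's value was taken from its brightest probe set, and it counted as measured where the mean log2 signal was at or above that of a signal of 30.8. All 10 cathepsin genes and 19 of their 22 probe sets were measured, as were 11364 genes of the array. Markers of granulosa cells (11 of 11 with a probe set), theca and interstitial cells (9 of 10) and oocytes (11 of 13) were measured too. All 7 lymphocyte markers with a probe set were too dim. Control features were not level between the arrays. The median poly-A spike was 1.496-fold brighter on the vehicle array (25 of 27 spikes brighter there), the median hybridization control 1.19-fold (18 of 18) and 18S ribosomal RNA 2.41-fold. The 25 include the trpn spikes, with signals of at most 3.9, too dim to be compared. The ratio of 3′ to 5′ signal, a sign of RNA and labelling quality, was 1.20 for Gapdh with vehicle and 0.866 with ulipristal, and 2.40 and 1.87 for Actb. The 5′ Gapdh signal was 4882 with vehicle and 7125 with ulipristal, a 1.46-fold gap of the size seen for several cathepsins. The 3′ Gapdh signal differed less, with 5879 and 6170. For Actb the 5′ signal was 5231 and 6308, and the 3′ signal 12532.6 and 11784.5. The part of these technical differences in the cathepsin values was not tested.

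The family did not move as one: 8 cathepsins were higher with ulipristal and 2, Ctsl and Ctsc, were lower. Ctsh was the 1 member past 2-fold upwards, and 0 members were past 2-fold downwards. Among all genes measured on the array, 3.34% passed 2-fold upwards and 1.56% downwards, and the family's share upwards rests on that single gene. At 1.5-fold, 2 cathepsins were higher (Ctsf and Ctsh) and 1 lower (Ctsl), beside 12.3% and 4.58% of all measured genes. The median log2 ratio of ulipristal over vehicle was 0.51 for the cathepsins and 0.09 for all measured genes, of which 60.0% were above 0.

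**Figure D1:**
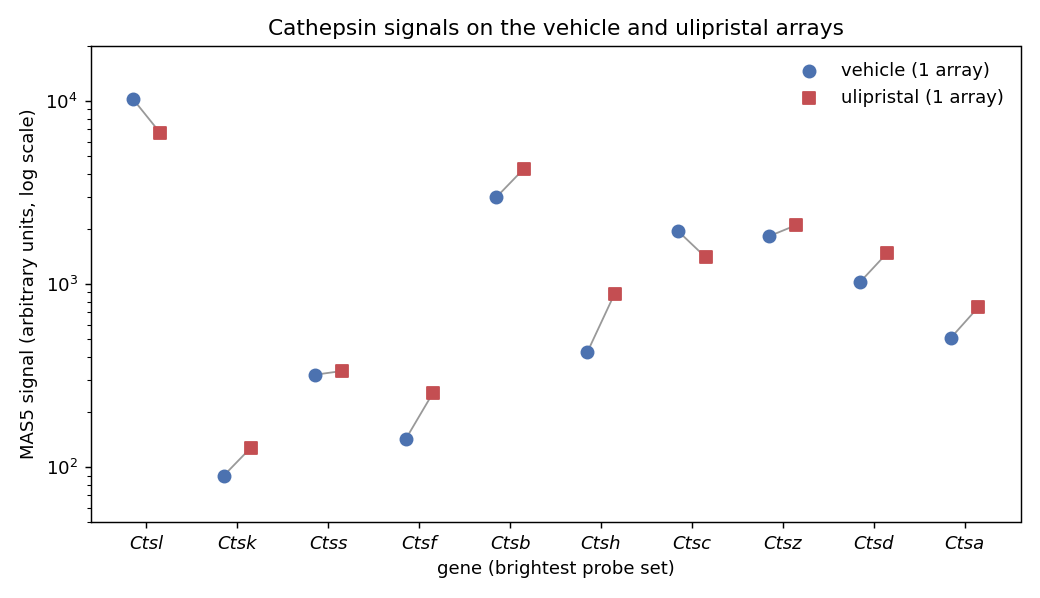
MAS5 signal of the brightest probe set of each cathepsin gene (arbitrary units, log scale) on the vehicle array (circles) and the ulipristal array (squares), 1 array each. The lines of Ctsl and Ctsc slope down and the other 8 slope up, Ctss least of all (319.5 against 335).

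Ctsl, the endopeptidase cathepsin L, read 10282 with vehicle and 6708 with ulipristal. It was thus 1.53-fold lower with ulipristal, a log2 ratio of -0.62. This was the lowest ratio among the brightest probe sets of the 10 genes, and 4.09% of all measured genes had a ratio as low or lower. Its other probe set gave 1.31 and 1.18, below the floor of 7.17 under which signals were not compared. The value therefore rests on 1 probe set. Ctsl was no longer 1.5-fold lower after quantile normalization (log2 ratio -0.46) or lowess centring against signal (-0.44). Adamts1 went the same way, with 6495 and 936, a 6.94-fold difference in its only probe set. The progesterone receptor message Pgr went the other way, from 49.2 to 350.6, a 7.13-fold difference in the only 1 of its 3 probe sets that was bright enough to be measured.

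Ctsc, also called dipeptidyl peptidase I, removes pairs of residues from the amino terminus of proteins and activates the serine proteases of leukocyte granules. Its brightest probe set read 1943 with vehicle and 1403 with ulipristal, 1.39-fold lower. Its other probe sets read 61.1 and 42.0, and 39.7 and 25.6. The log2 ratios were -0.47, -0.54 and -0.63, all below 0. The last of these probe sets passed the filter only through the vehicle array, where it is high, so its direction adds little, and the other 2 lay 0.07 apart. Of these 2, the dimmer (61.1 and 42.0) is of a kind that may bind other transcripts, so their closeness adds little too. Of the granule proteases that Ctsc activates, only Gzmb (granzyme B) was measured, of 10 with a probe set, with 47.6 and 32.9. Among neutrophil markers S100a8 (202 and 73.5) and S100a9 (150 and 40.6) were also lower with ulipristal, whereas Ltf was higher (64.3 and 175). The other 4 neutrophil markers with a probe set were too dim, and the summed signal of the list, these 4 included, was 507 and 317. The part of these cells in the Ctsc value was not tested.

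Ctsh, an aminopeptidase, had the highest ratio among the brightest probe sets of the 10 genes. Its brightest probe set read 425 with vehicle and 886 with ulipristal, 2.09-fold higher, and 97.3% of measured genes had a ratio as low or lower. The second probe set, of a kind that may bind other transcripts, read 263 and 368, 1.40-fold higher. Both were thus higher with ulipristal, but only the first reached 2-fold. With the median over both probe sets the log2 ratio was 0.77, below the 0.84 of Ctsf, and with 50 added to every signal it was 0.98, so the call of 2-fold did not hold under these settings.

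Ctsb, which cuts both within and at the carboxy end of proteins, had 5 measured probe sets that did not agree. The brightest read 2987 with vehicle and 4255 with ulipristal, 1.42-fold higher. The second brightest read 464 and 1523, 3.28-fold higher, the largest ratio of any cathepsin probe set. The dimmer ones gave 133 and 246 (1.85-fold higher), 111 and 183 (1.64-fold higher), and 57.9 and 49.3 (1.17-fold lower). So 4 of 5 were higher with ulipristal, with log2 ratios from -0.23 to 1.71. The range of 1.95 was wide, since the median range was 0.73 over the 172 genes with 5 measured probe sets, of which 1.74% had a range at least as wide. The 4 higher probe sets are annotated to the same messenger RNA sequence and the lower one to another. Their places along the transcript were not analysed here, and neither was the part of the 3′ to 5′ difference in this spread.

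**Figure D2:**
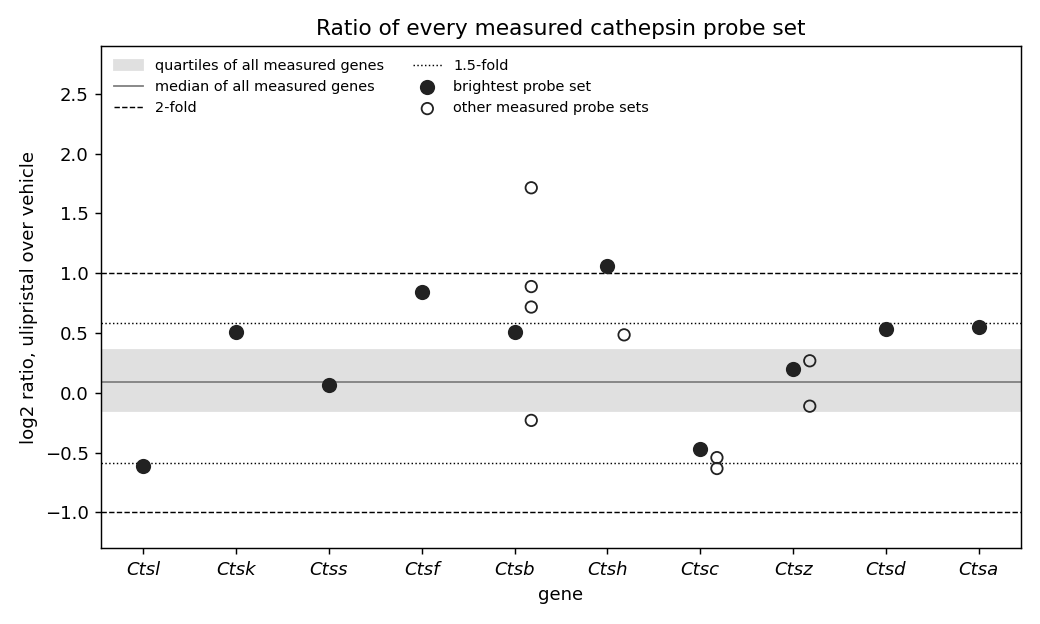
Log2 ratio of ulipristal over vehicle for each of the 19 measured cathepsin probe sets, with the brightest probe set of a gene filled and the others open. The band runs between the quartiles of all measured genes (-0.15 and 0.36), and dashed and dotted lines mark 2-fold and 1.5-fold. The 3 Ctsc points lie together below the band, and the 5 Ctsb points run from -0.23 to 1.71.

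The remaining endopeptidases were measured by 1 usable probe set each. Ctsf, cathepsin F, read 142 with vehicle and 253 with ulipristal, 1.79-fold higher. Its second probe set gave 9.23 and 0.962, too dim to be measured. Ctsk, the collagen-degrading cathepsin of osteoclasts, read 89.9 and 127.9, 1.42-fold higher. Ctss, which trims the invariant chain of class II molecules in antigen-presenting cells, read 319.5 and 335.0, 1.05-fold higher. Ctsf and Ctsk thus lay above the upper quartile of all measured genes (0.36) and Ctss lay between the quartiles.

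Ctsd, the aspartic protease cathepsin D, read 1026 with vehicle and 1482 with ulipristal, 1.44-fold higher in its only probe set. Ctsa, a carboxypeptidase that also protects lysosomal galactosidase and neuraminidase, read 509 and 747, 1.47-fold higher. A second probe set of Ctsa, too dim to be measured, read 25.2 and 28.7. Ctsz, a carboxypeptidase, had signals of 1827 and 2101 (1.15-fold higher), 617 and 570 (1.08-fold lower), and 473 and 570 (1.20-fold higher). All but the brightest are of kinds that may bind other transcripts. The 3 Ctsz probe sets thus lay on both sides of 0, with log2 ratios from -0.11 to 0.27. By their brightest probe sets Ctsa, Ctsb, Ctsd and Ctsk were all 4 between 1.42-fold and 1.47-fold higher, a closeness picked out after the values were seen. They lay further apart after lowess centring against signal, with log2 ratios of 0.56, 0.64, 0.59 and 0.38.

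**Figure D3:**
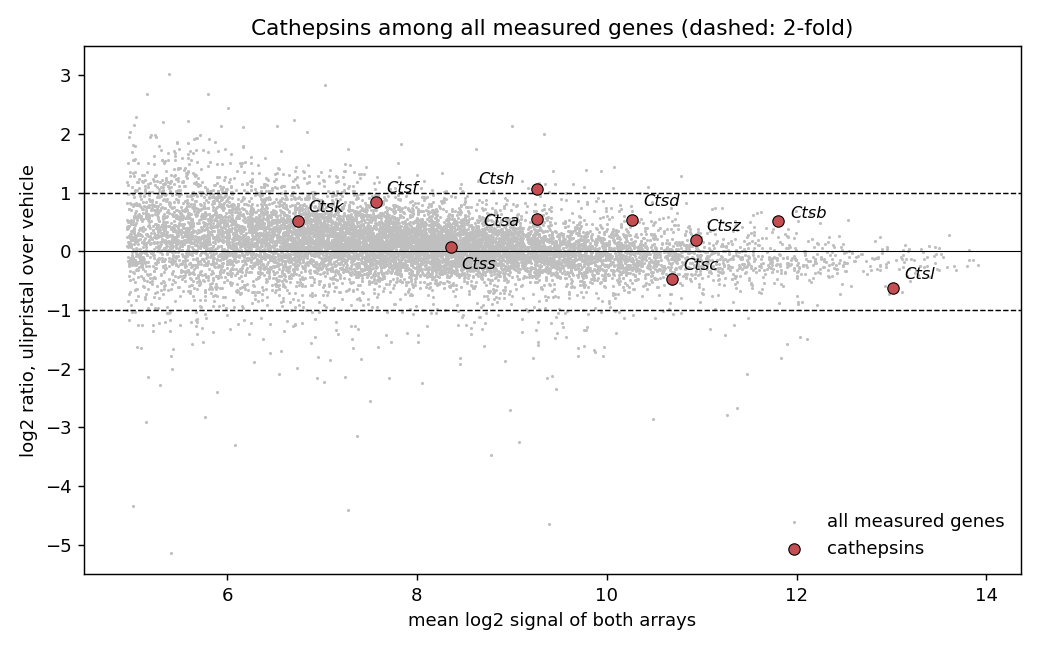
Log2 ratio of ulipristal over vehicle (vertical) against the mean log2 signal of both arrays (horizontal) for 11364 measured genes (grey) and the 10 cathepsins (red), with 2-fold dashed. Ctsh lies just above the upper dashed line, and Ctsl lies below 0 at the right.

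The spread of ratios depended on signal, with an interquartile width of 0.68 on the log2 scale for measured genes below the lower quartile of signal and 0.37 for those above the upper quartile. The centre moved as well, with quartiles of -0.08 and 0.60 for the former and -0.25 and 0.12 for the latter. Of the 10 genes, 9 (all but Ctsk) also passed a filter at the 75th percentile of signal. Of the 7058 genes that did so, 0.822% passed 2-fold upwards and 1.43% downwards, their median log2 ratio was 0.03 and their quartiles were -0.19 and 0.25. The median of the 9 cathepsins was 0.51. Ctsa, Ctsb, Ctsd, Ctsf and Ctsh lay above these quartiles, and Ctsc and Ctsl below them.

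Lysosomal genes are known to share a promoter element called CLEAR, built around the letters CACGTG and bound by the transcription factor Tfeb and its relatives. It was searched for in the 250 bases before each annotated start (RefSeq, build GRCm38.p6), with the longer form GTCACGTG, which contains the first, on both strands. The table matched 8 of the 10 genes with 9 starts; Ctsb and Ctsh were not matched. CACGTG was present before 4 of these 9 starts, those of Ctsa, Ctsd, Ctsf and Ctsl, against 6.02% of 32851 starts of all genes. The longer form was present for Ctsa and Ctsd, against 1.85%. The sites are shown with CACGTG in capitals, 5′ to 3′ on the strand of the gene.
Ctsd, chr7:142388059-142388077, minus strand: tccccCACGTGacctgtat
Ctsd, chr7:142387912-142387933, minus strand: ccgcgtctCACGTGacccgttg
Ctsa, chr2:164833753-164833772, plus strand: caaactgtCACGTGatgcag
Ctsf, chr19:4855078-4855099, plus strand: ccgtggtcCACGTGcctcgcgt
Ctsl, chr13:64370743-64370764, minus strand: ttagaagcCACGTGctgatcta

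Both Ctsd sites, 245 and 98 bases before the start, and the Ctsa site, 12 bases before it, held the longer form. The Ctsf site, 79 bases before the start, and the Ctsl site, 236 bases before it, held the core only. The windows with the Ctsa and Ctsl sites lie inside the annotated span of their genes, before starts internal to them, so they are not the outermost promoters. Ctsa also has an outer start, and the 250 bases before it (chr2:164832622-164832871) held CACGTG at 0 places. A match is a description of letters and says nothing of binding. The Ctsd window, the only one with CACGTG at 2 places, is given in full (chr7:142387828-142388077, minus strand, 250 bases, 67.2% G or C), with GTCACGTG or its reverse complement in capitals.
Ctsd: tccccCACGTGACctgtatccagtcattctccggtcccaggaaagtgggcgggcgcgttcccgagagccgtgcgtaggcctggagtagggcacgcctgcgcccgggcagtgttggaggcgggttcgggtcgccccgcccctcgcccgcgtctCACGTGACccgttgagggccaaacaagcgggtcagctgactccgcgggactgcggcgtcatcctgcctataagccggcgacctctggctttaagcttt

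Of the genes with these letters, Ctsa and Ctsd (longer form) and Ctsf (core only) were higher on the ulipristal array. Ctsl (core only) was lower. The part of CLEAR and of Tfeb in these values was not tested. The regulators of lysosomal gene expression lay near the middle of all genes. Of 10 measured, 6 were above 0 and 4 below, 0 were 2-fold higher or lower and the median log2 ratio was 0.03. Tfeb itself was dim, with signals of 41.2 and 47.1, and was chosen after its values were seen. Its relative Tfe3 read 204 and 260, and Rptor, a subunit of the growth-regulating kinase complex that restrains Tfeb, 115 and 151. Rragd and Flcn, which act on the same kinase complex at the lysosome, went the other way, with 322 and 241, and 199 and 173, although a second Flcn probe set had a log2 ratio of 0.22. GC boxes (GGGCGG on either strand) were present before 5 of the 9 starts and in 32.7% of all, and CCAAT on either strand before 2 of 9 and in 33.8%.

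Other lysosomal genes were set beside the cathepsins. Among other lysosomal hydrolases, 17 of 27 measured genes were above 0 and 10 below, 0 reached 2-fold in either direction, and the median log2 ratio was 0.13. These counts are of brightest probe sets, and a dimmer Ids probe set had a log2 ratio of 1.04. Acp5, an acid phosphatase of osteoclasts and macrophages, read 48.4 and 80.5, Naglu, which degrades heparan sulfate, 197 and 302, and Galc, which degrades galactolipids, 346 and 226. Membrane and transport proteins had a median of 0.25 over 13 genes, with 2 at least 2-fold higher and 0 lower. These were Cln3, a membrane protein mutated in Batten disease (60.9 and 152.6), and Abca2, a lipid transporter (35.6 and 77.6). The second Cln3 probe set gave a log2 ratio of 0.18, and 2-fold was reached under 7 of 9 alternative settings for Cln3 and 6 of 9 for Abca2. Mcoln1, of the same list, had a log2 ratio of 0.15 in its brightest probe set and 1.40 in a dimmer one. Subunits of the proton pump, which acidifies the lysosome, had 5 of 14 genes above 0 and 9 below, 0 past 2-fold and a median of -0.04. Of the pump subunits Atp6v1b2 had the highest ratio (343 and 536) and Atp6v0b the lowest (789 and 611), followed by Atp6v1e1 (1596 and 1253) and Atp6v0e (1560 and 1266). The 3 probe sets of Atp6v0b did not agree, with log2 ratios from -0.37 to 0.68.

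Among genes that sort enzymes to the lysosome 10 of 13 were above 0 and 0 reached 2-fold, with a median of 0.20. Gnptg, a subunit of the enzyme that makes the mannose 6-phosphate tag, read 80.1 and 138.6, and Vps26a, of the retromer coat that returns receptors, 870 and 510. Other lysosomal peptidases had 6 of 8 genes above 0 and a median of 0.11. The 1 gene past 2-fold was Napsa, an aspartic protease related to Ctsd, with signals of 14.1 and 90.1. It passed the filter only through the ulipristal array, so the size of its ratio is uncertain: 2.68 on the log2 scale, and 1.13 with 50 added to every signal. Without it 5 of 7 were above 0 and 0 reached 2-fold by their brightest probe sets. A dimmer Scpep1 probe set had a log2 ratio of 1.21. Legumain (Lgmn), which cuts after asparagine and processes cathepsin precursors, read 1329 and 1550.

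**Figure D4:**
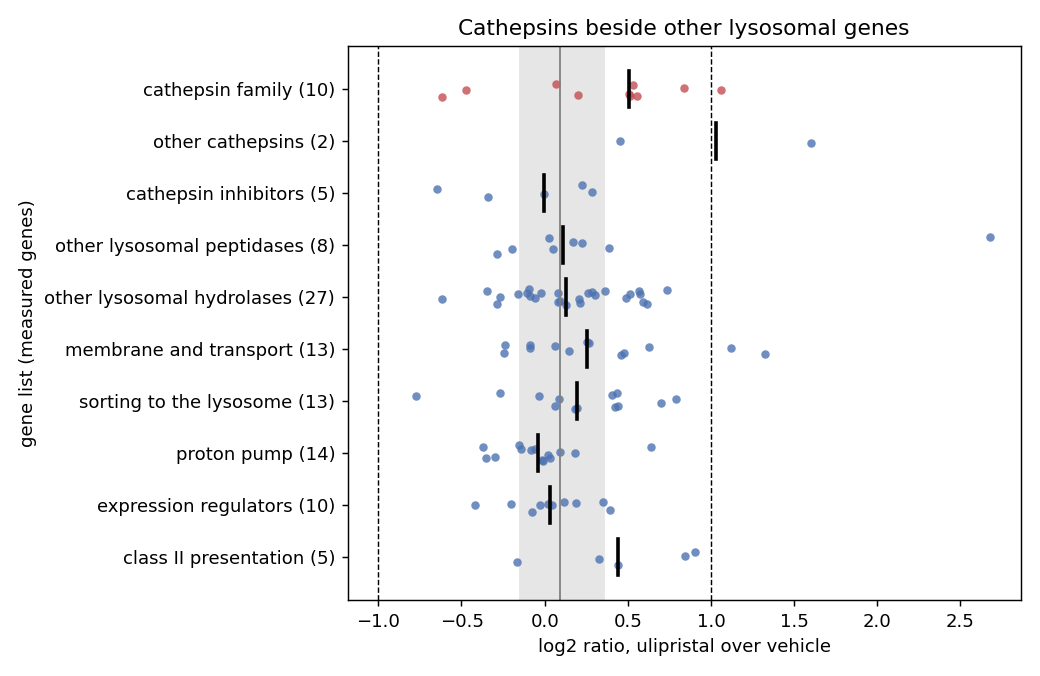
Log2 ratio of ulipristal over vehicle for measured genes of the cathepsin family (red) and of comparison lists (blue), 1 point per gene, with each list's median as a black bar and its number of genes in brackets. The band and thin line are the quartiles and median of all measured genes and the dashed lines are 2-fold; the cathepsin median is 0.51 and that of the other hydrolases 0.13.

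Inhibitors of cysteine cathepsins did not reach 2-fold in either direction in any of 5 measured cases, with 2 above 0 and 3 below. Cstb, the inhibitor cystatin B inside cells, read 3992 with vehicle and 2553 with ulipristal, 1.56-fold lower, with a second probe set at a log2 ratio of -0.27. Cst3, the secreted inhibitor cystatin C, chosen after its values were seen, read 2498 and 2490. Ctla2a and Ctla2b, which resemble the propeptide of cathepsin L and inhibit it, read 605 and 706, and 107 and 84.7. Cst12, of the cystatin family, read 986 and 1202. Of the remaining 5 with a probe set none was bright enough to be measured.

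Of 13 further genes named as cathepsins, 11 were too dim to be measured. The measured ones were Ctso, a cysteine cathepsin (280 and 384, 1.37-fold higher), and Ctse, an aspartic protease of epithelia and immune cells. Ctse read 43.8 and 133.3 in the brighter of its probe sets, 3.04-fold higher, and had a log2 ratio of 0.34 in the other. That brighter probe set is of the kind that can bind several transcripts, and Ctse reached 2-fold under 6 of 9 alternative settings.

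Markers of other cells in whole ovary were read beside these values. Of 17 measured macrophage markers, 15 were above 0 and 2 below, 1 (C1qc, which reached 2-fold under 5 of 9 alternative settings) was at least 2-fold higher, and the summed signal of the list was 2514 with vehicle and 2988 with ulipristal. The remaining marker of 18, Itgam, chosen after its values were seen, was too dim. Class II genes, whose peptide loading Ctss serves, had 4 of 5 measured members above 0, with Cd74, the invariant chain, at 62.3 and 116.4. For H2-Aa, 1 of these 4, the 3 measured probe sets did not agree, with log2 ratios from -0.58 to 0.32. Ctss itself differed least of the 10 cathepsins. Summed signals of the lists include markers too dim to be measured. Oviduct markers had summed signals of 4540 and 7583, of which Ovgp1 alone gave 3641 and 5642. Of 9 measured, Foxj1 and Ccdc39 passed the filter only through the ulipristal array, where they are high, and of the other 7, bright enough on both arrays, 7 were above 0 and 5 at least 2-fold higher. Markers of surface epithelium were above 0 in 9 of 10 cases (1901 and 2658), stromal fibroblast markers in 8 of 9 (31362 and 35934) and granulosa markers in 8 of 11 (21910 and 25904), 4 of them at least 2-fold higher. The granulosa marker Amh passed the filter only through the vehicle array, where it is high, and without it 8 of 10 were above 0. Adipose markers were above 0 in 5 of 5 cases (3596 and 4958) and endothelial markers in 9 of 10 (2240 and 2712), with Cidec of the former and Tie1 of the latter passing the filter only through the ulipristal array. Markers of smooth muscle and pericytes were above 0 in 9 of 10 cases, of oocytes in 9 of 11 and of dendritic cells in 1 of 2. Theca and interstitial markers were above 0 in 7 of 9 cases, with Hhip 4.67-fold lower (280 and 60.0). Of all measured genes 60.0% were above 0 and 3.34% at least 2-fold higher. The lists leaned by unequal amounts. Their median log2 ratio was 1.18 for oviduct, 0.90 for adipose and 0.59 for surface epithelium markers. It was 0.20 for macrophage and 0.14 for oocyte markers, beside 0.09 for all measured genes. Medians below 0 were those of dendritic cell (-0.09) and neutrophil markers (-1.46). The part of tissue content in the higher cathepsin values was not tested.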

How the data were processed

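Whole-ovary RNA (100 ng) was labelled and hybridised to Affymetrix mouse arrays. The deposited data are MAS5 intensities, 1 linear value per probe set. The submitters' processing notes also name Affymetrix Expression Console (version 1), with no roles or order, and no genome build was found in the labels or headers. With the lowest and highest 2% of values left out, both arrays have a mean of 150.001, so a shift common to most genes cannot be seen.

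Of 45101 probe sets, 64 were controls. The platform annotation named 1 gene for 34945 and several for 932, and 0 of the latter named a cathepsin of the family studied. All 10 gene identifiers were found in RefSeq. Signals under 7.17, the 25th percentile without controls, were raised to it before log2. A gene was represented by its brightest probe set and measured at or above the 50th percentile of mean log2 signal. A gene was called at 2-fold. The number of arrays, 1 per group, limits the precision. The steps were tested on simulated data in which every planted difference was above 2-fold. Differences as small as those of most cathepsins were not covered. Named from each comparison list were up to 4 genes with the largest ratios, and others are said to have been chosen after their values were seen. The members and lists were chosen with earlier results of these data known. Alternatives are given in the closing section. The tools were Python (3.11.15) with pandas (2.3.3), numpy (2.4.6), matplotlib (3.10.9) and statsmodels (0.14.6).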

Additional observations from a re-analysis of the deposited data

How the results depend on the processing

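Each cathepsin ratio kept its direction under each of the 9 or 10 alternative settings that could be computed (quantile normalization, median or lowess centring, the latter with a fraction of 0.3, a floor at the 50th percentile or none, a filter at the 75th percentile or none, 50 added to every signal in place of the floor, the median over probe sets, and no s or x probe sets). For the cathepsins the changes of floor and the removal of s or x probe sets could not alter a ratio. Each brightest probe set was above the floors and of neither kind. The changes of filter could only drop a gene, and median centring shifted all ratios alike. These settings therefore add little, and the 710 values that held include such fixed ones. Adding 50 to every signal could change the size of a cathepsin ratio but not its direction. The median over probe sets could not alter Ctsa, Ctsd, Ctsf, Ctsk, Ctsl or Ctss, with 1 measured probe set each. The closest to 0 was Ctss, with 0.01 after median centring. Ctsl ran from -0.68 to -0.44 (lowess centring) and Ctsh from 0.77 to 1.08. The median of the family ran from 0.43 with the pseudocount of 50 to 0.52. The number at least 2-fold higher was 1, and 0 with the pseudocount, with the median over probe sets, or at 3-fold. At 1.5-fold it was 2 higher and 1 lower. The lists and the genes named from them were run under the same settings, a choice made after seeing the data, and of all 763 values 710 held, 53 moved (past or below 2-fold, by over 1.5-fold, or across 0 from a value under 2-fold) and 0 reversed a 2-fold call. Besides Ctsh, 2-fold was lost most often by C1qc and Pecam1 (each reached it under 5 of 9 settings), Abca2 and Ctse (6 of 9). Medians close to 0 changed sign for the cathepsin inhibitors (-0.06 to 0.14), the proton pump (-0.10 to 0.01) and the expression regulators (-0.03 to 0.12). No paired analysis was possible because each treatment had 1 array. Ctsk dropped out at the filter of the 75th percentile.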
